A study of Mus musculus with 24 samples.

Results

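SHAM surgery in this study exposed the cervical spinal cord without damaging it, and the comparison described here followed the adult cortex of such mice from 12 h to 3 days after that surgery. Of the 24 small RNA libraries in the series, 6 entered the comparison, chosen by their labels alone: 3 from P90 SHAM mice at 12 h and 3 from P90 SHAM mice at 3 days. All were male C57BL/6J mice labelled postnatal day 90 (P90), and each sample was collected individually. The methods give that age to the mice that underwent surgery, so age at collection goes with time after surgery. The labels call these animals wild type or control, and the study's methods call them SHAM. The 6 P90 libraries with a spinal cord transection (SCI) were used only for values side by side and for a test of whether time acted differently. No unoperated mouse and no batch is given in the labels, so time after surgery, dissection and library preparation cannot be told apart. The tissue is sensorimotor cortex by the labels; the methods mention it whole in one place and layer V alone in another.

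A microRNA (miRNA) is cut from a hairpin precursor, and either side of the hairpin, the 5p or the 3p arm, can give the mature strand. Bases 2 to 8 of that strand, the seed, choose most of the transcripts it represses. A mature strand can persist for days, so its level reflects both production and decay, and several miRNAs are used as marks of a cell type, such as those from an intron of Htr2c in the choroid plexus.

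The sequences of the arms on which the comparison turned are given first. The mature sequences are from RefSeq (GRCm38.p6), with the seed in capitals. miR-671-5p, on chromosome 5 from a hairpin that overlaps an exon of Chpf2 and, on the opposite strand, one of Smarcd3, was the arm whose course over time differed between SHAM and SCI.
miR-671-5p: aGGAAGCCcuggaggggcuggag

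The next arms were high in libraries 1 and 3 of the 3 days group. Most are shown because they came from a few shared loci, which miR-204-5p and miR-7a-5p did not. miR-1298-5p and miR-448-3p lie in introns of Htr2c on chromosome X, miR-204-5p in an intron of Trpm3, miR-653-5p and miR-489-3p in an intron of Calcr, and miR-217-5p on chromosome 11 beside miR-216a and miR-216b. For miR-7a-5p, which more than 1 hairpin encodes, the copy on chromosome 7 is given.
miR-1298-5p: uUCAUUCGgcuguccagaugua
miR-448-3p: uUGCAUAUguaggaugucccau
miR-204-5p: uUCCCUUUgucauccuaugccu
miR-653-5p: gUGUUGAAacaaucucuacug
miR-489-3p: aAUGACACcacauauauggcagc
miR-217-5p: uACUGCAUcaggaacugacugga
miR-7a-5p: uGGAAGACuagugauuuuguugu

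The last RefSeq sequences are those of arms that were lower at 3 days with the smallest p values. No seed was shared among the 16 RefSeq sequences shown.
miR-350-3p: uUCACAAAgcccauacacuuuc
miR-329-3p: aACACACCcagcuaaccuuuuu
miR-337-3p: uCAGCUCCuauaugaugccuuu
miR-23a-3p: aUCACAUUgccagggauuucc
let-7i-3p: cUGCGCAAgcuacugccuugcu
miR-376b-3p: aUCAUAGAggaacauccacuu
miR-409-5p: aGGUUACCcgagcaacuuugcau
miR-495-3p: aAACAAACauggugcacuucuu

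For miR-3470a-3p, miR-3470b-3p and miR-1954-3p the most abundant deposited read is shown, because many other transcripts carry it. Capitals mark the 15 nt that the first pair of reads had in common.
miR-3470a-3p: gCCTGCCTCTGCCTCCtga
miR-3470b-3p: aCCTGCCTCTGCCTCCcga
miR-1954-3p: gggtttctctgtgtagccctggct

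The 12 h libraries held 20534330 to 34298726 reads and the 3 days libraries 11199173 to 37349056. Between 72.1% and 77.7% of the reads lay in miRNA arms. The most abundant arms were those of brain: miR-9-5p and miR-9-3p, miR-128-3p, miR-29a-3p and miR-26a-5p, of which the miR-9 arms and miR-128-3p mark neural tissue. The liver marker miR-122-5p had 79.6 to 111.5 normalised counts beside 1225718 to 2266118 for miR-9-5p. Libraries 1 and 3 of the 3 days group stood apart from library 2 for a set of arms described below.

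Little of the miRNA profile passed the test between 12 h and 3 days. Of 803 arms tested, 1 was called (0.125%), which required an adjusted p below 0.05 together with a log2 difference over 1 (edgeR quasi-likelihood test, Benjamini-Hochberg adjustment). At an unadjusted p under 0.05, 58 arms were higher at 3 days (7.22% of those tested) and 55 were lower (6.85%). The 3 days libraries all lay above the 12 h libraries for 56 arms (6.97%) and all below for 83 (10.3%), and the median log2 fold change of all arms was -0.025. The 2 groups of 3 libraries could not give an exact permutation p below 0.1 for any single value.

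**Figure D1:**
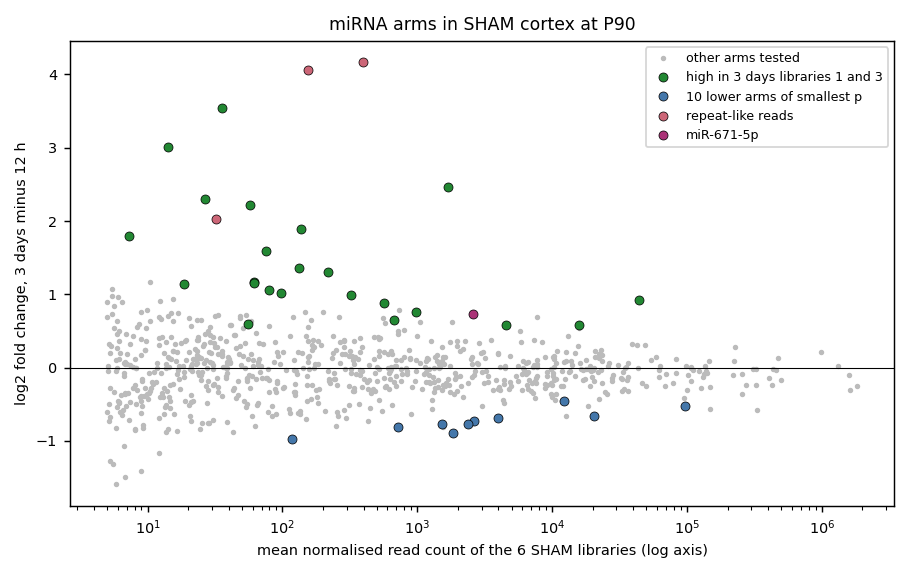
Log2 fold change between 3 days and 12 h for the 803 arms tested in P90 SHAM cortex (vertical axis) against their mean normalised read count (log horizontal axis), 1 point per arm. Green arms are those highest in 3 days libraries 1 and 3, blue the 10 lower arms of smallest p, red the 3 arms whose reads many transcripts carry, and purple miR-671-5p; most arms lie within 1 log2 unit of zero.

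The called arm was miR-3470a-3p. Its normalised counts were 36.0, 3.55 and 9.22 at 12 h and 296.5, 261.0 and 327.5 at 3 days. The groups did not overlap, and 12 h library 1 was the highest of its group. The log2 fold change was 4.06 ± 0.54 (SE, n = 3 and 3 libraries; edgeR adjusted p = 0.0183). The 12 h level rested on 48, 3 and 8 reads. Without 3 days library 1 the call was lost (edgeR adjusted p = 0.065), as it was without 3 days library 3 (edgeR adjusted p = 0.16), and without 12 h library 1 the log2 fold change was 5.50. The other arm of the hairpin, miR-3470a-5p, had a log2 fold change of -0.15.

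miR-3470b-3p had 95.2, 17.8 and 4.61 normalised counts at 12 h and 791.5, 635.0 and 818.9 at 3 days. The groups were apart, with a log2 fold change of 4.17 ± 0.71 (SE; edgeR adjusted p = 0.0694). miR-1954-3p had 9.74, 14.2 and 13.8 normalised counts at 12 h and 25.0, 52.2 and 77.9 at 3 days. These groups were also apart, and the log2 fold change was 2.03 ± 0.44 (SE; edgeR adjusted p = 0.16). Neither arm was called.

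The reads of these 3 arms are not particular to their hairpins. The most abundant read of miR-3470a-3p was found in transcripts of 106 other genes on the sense strand and 88 on the antisense strand. That of miR-3470b-3p was found in 100 and 67, and that of miR-1954-3p, whose hairpin lies in an intron of Eng on chromosome 2, in 887 on either strand. Their source among these transcripts cannot be told apart from the counts. RefSeq names no mature strand for these arms, and the names were built from the hairpin and the side of it. In the SCI libraries, which share none of the 6, miR-3470a-3p had 6.15, 8.62 and 1.22 normalised counts at 12 h and 107.0, 159.2 and 118.4 at 3 days, scaled over all 12 P90 libraries. Its log2 fold change in SCI was 4.65 ± 0.42 (SE; edgeR adjusted p = 0.00149). The SCI values were 3.78 ± 0.48 for miR-3470b-3p (SE; edgeR adjusted p = 0.00451) and 3.21 ± 0.32 for miR-1954-3p (SE; edgeR adjusted p = 0.00149). These arms were thus higher at 3 days both with and without the transection, as called in SCI and, for miR-3470a-3p, in SHAM. The test of a difference between SHAM and SCI did not pass for miR-3470a-3p (log2 difference -0.60 ± 0.86, SE; edgeR adjusted p = 0.921).

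miR-671-5p was the arm for which time acted differently in SHAM and SCI. Its normalised counts in SHAM were 1874, 1973 and 1941 at 12 h and 2994, 3475 and 3168 at 3 days. Every 3 days library was above every 12 h library, by a log2 fold change of 0.73 ± 0.14 (SE), which did not pass the test in SHAM alone (edgeR adjusted p = 0.118). In SCI, on the scale of all 12 libraries, the counts were 1471, 1394 and 1559 at 12 h and 1189, 955.3 and 947.3 at 3 days. These groups did not overlap either, in the opposite direction, with a log2 fold change of -0.49 ± 0.14 (SE; edgeR adjusted p = 0.0829). On that same scale SHAM had 1545, 1609 and 1550 at 12 h, near the SCI values, and 2373, 2840 and 2555 at 3 days. The study itself reports miR-671-5p as downregulated after SCI in more than 1 of its groups. That report used libraries of the same series, so the values here are not independent of it.

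The difference between the time effects of SHAM and SCI was 1.24 ± 0.18 on the log2 scale for miR-671-5p (SE, n = 3 libraries in each of 4 groups; edgeR adjusted p = 0.00746). It was the 1 arm called of 765 tested for this difference (0.131%). The partner arm, miR-671-3p, had a SHAM log2 fold change of -0.07, and the ratio of the 5p to the 3p arm was higher in every 3 days SHAM library (difference 0.81 on the log2 scale; two-sided exact permutation p = 0.1). The 24 nt form made up 47.0% to 48.7% of miR-671-5p reads in SHAM at 12 h and 47.6% to 51.4% at 3 days. In SCI it made up 37.0% to 39.8% at 12 h and 22.9% to 28.4% at 3 days. The length of the read thus shifted with time in the SCI libraries and little in SHAM; this was not tested further.

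**Figure D2:**
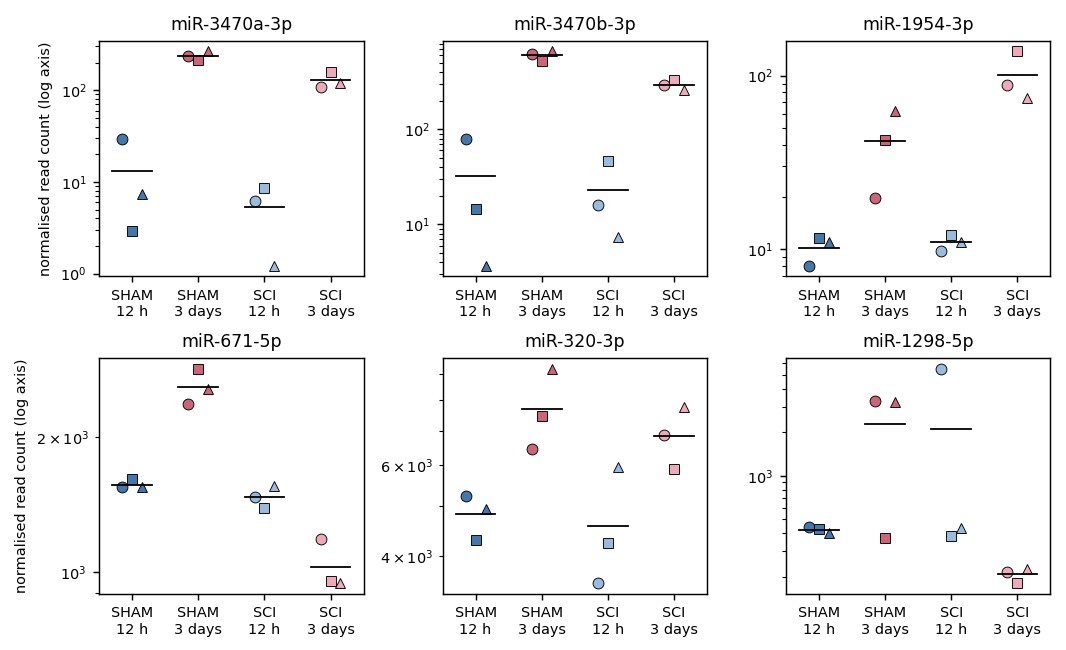
Normalised read count per library (log axis, scaled over the 12 P90 libraries) of 6 arms in SHAM and SCI cortex at 12 h and 3 days; circles, squares and triangles are libraries 1, 2 and 3, and bars are group means. miR-671-5p at 3 days lies at 2373 to 2840 in SHAM and at 947.3 to 1189 in SCI, while miR-1298-5p is high in 3 days SHAM libraries 1 and 3 and in SCI 12 h library 1.

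A set of arms was high in 3 days libraries 1 and 3 but not in library 2. The set was read off after the values were seen and is given as a description without a test: 23 arms had both libraries at over 1.5 times the highest of the other 4 SHAM libraries, and 2 arms lay as far in the other direction. miR-1298-5p, from an intron of Htr2c, had 534.3, 523.7 and 506.2 normalised counts at 12 h and 4134, 454.5 and 4034 at 3 days. Library 2 lay below all the 12 h libraries, so the groups overlapped, and the SD at 3 days was 2096 around a mean of 2874. The log2 fold change of 2.47 ± 0.61 (SE) was not called (edgeR adjusted p = 0.184).

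Several other arms from introns of Htr2c, the serotonin receptor gene of the choroid plexus epithelium, were also highest in 3 days libraries 1 and 3. miR-448-3p had 56.2, 58.1 and 65.7 normalised counts at 12 h and 286.3, 34.8 and 328.5 at 3 days. Its partner miR-448-5p had 71.2, 69.9 and 84.2 at 12 h and 224.2, 89.2 and 257.5 at 3 days. For miR-448-5p library 2 thus lay above the 12 h libraries and the groups did not overlap. Its log2 fold change of 1.365 ± 0.338 (SE) was not called (edgeR adjusted p = 0.184). miR-1264-5p, for which no RefSeq sequence is shown, had 110.2, 161.1 and 108.4 at 12 h and 415.3, 102.2 and 401.5 at 3 days. The choroid plexus arm miR-204-5p, from Trpm3, had 10824, 13911 and 13552 at 12 h and 21104, 12897 and 23244 at 3 days. Of the 12 tested arms in the choroid plexus and Htr2c list, 9 were in the set, beside 23 of all 803 arms tested. Those outside the set included miR-204-3p, with 156.6, 107.8 and 110.7 at 12 h and 143.8, 163.1 and 243.7 at 3 days. miR-211-5p, also outside, had 23.98, 36.73 and 32.28 at 12 h and 29.72, 26.1 and 33.54 at 3 days, a log2 fold change of -0.022. In that list 9 had an unadjusted p under 0.05 in the higher direction (7.22% of all arms did) and none was called. The median log2 fold change was 1.11, beside -0.025 over all arms. Summed over the list, the counts were 12149 to 15265 at 12 h and 14007 to 29443 at 3 days. In these tissue samples, a change in the number of cells of a type and a change in RNA per cell cannot be told apart.

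Arms of miR-34b and miR-34c, which mark ciliated cells, were in the set too. These were 3 of the 6 tested arms of that list, beside 23 of all 803 arms tested. miR-34c-5p had 3234, 3777 and 3924 normalised counts at 12 h and 6901, 3134 and 6347 at 3 days. Summed, the ciliated cell list had 4467 to 5266 at 12 h and 4424 to 9296 at 3 days, and its median log2 fold change was 0.62.

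The set went beyond those markers. miR-653-5p and miR-489-3p share an intron of Calcr, the calcitonin receptor gene; miR-653-5p had 32.97, 13.03 and 14.99 normalised counts at 12 h and 128.99, 17.40 and 137.13 at 3 days. miR-217-5p, encoded beside miR-216a-5p and miR-216b-5p, had 48.0, 29.6 and 36.9 at 12 h and 133.04, 36.97 and 168.71 at 3 days. miR-7a-5p, an abundant neuronal and endocrine miRNA, had 37288, 26082 and 27343 at 12 h and 69127, 34040 and 69126 at 3 days. In each, 3 days library 2 was within or below the range of the 12 h libraries. In SCI, miR-7a-5p was also higher at 3 days, with a log2 fold change of 0.68 ± 0.15 (SE; edgeR adjusted p = 0.0428). On the scale of all 12 libraries it had 20299 to 28612 at 12 h and 34859 to 43490 at 3 days in SCI. The SCI log2 fold changes of miR-653-5p and miR-217-5p were 0.355 ± 0.439 and 0.273 ± 0.312 (SE). miR-3547-3p, from an intron of Baiap3, had the highest ratio, with 5.25, 5.92 and 6.92 at 12 h and 116.8, 4.35 and 76.0 at 3 days.

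When 3 days library 2 was left out, 21 of 829 arms tested were called in place of 1, all of them higher at 3 days. Of the 21, 18 belonged to the set of 23. That set was chosen for high values in the 3 days libraries that remain, so the overlap follows largely from the choice and nothing is drawn from it. The same arms did not all move together elsewhere. SCI 12 h library 1 was over 1.5 times the other SCI 12 h libraries for 13 of the 23 arms. Among them were miR-1298-5p (5523 beside 380.8 and 432.9) and miR-204-5p, but not miR-217-5p (22.1 beside 29.3 and 23.2) or miR-7a-5p. The share of all arms with such a ratio was not counted, so nothing about the set is drawn from the 13. The part of dissection or of these cell types in the time effect was not tested.

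**Figure D3:**
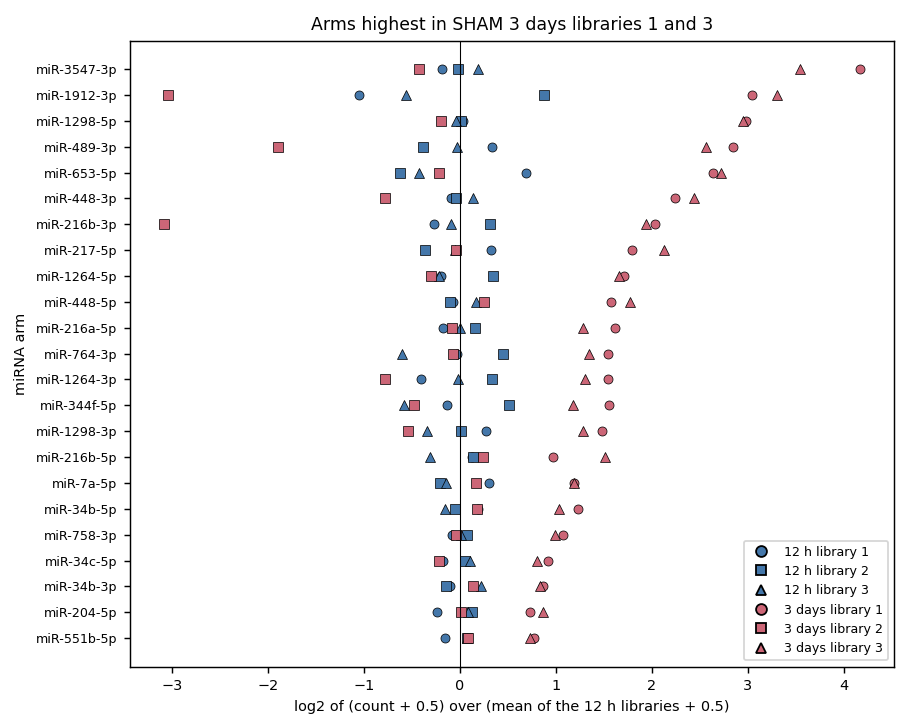
The 23 arms highest in SHAM 3 days libraries 1 and 3, as the log2 of each library's normalised read count (plus 0.5) over the mean of the 12 h libraries (plus 0.5), with blue for 12 h, red for 3 days, and circles, squares and triangles for libraries 1, 2 and 3. Red circles and triangles lie to the right of all other points in every row, and the red squares of library 2 lie among or left of the 12 h points for most arms.

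Several further arms were higher at 3 days in all libraries, among them miR-320-3p and miR-370-3p. miR-320-3p had 6357, 5261 and 6190 normalised counts at 12 h and 8132, 9149 and 11430 at 3 days. The groups did not overlap, with a log2 fold change of 0.69 ± 0.16 (SE; edgeR adjusted p = 0.17), and the SCI value was 0.61 ± 0.18 (SE). miR-370-3p, of the imprinted Dlk1-Dio3 cluster on chromosome 12, had 4563, 4532 and 5153 at 12 h and 6458, 6653 and 7018 at 3 days. Its log2 fold change was 0.50 in SHAM and -0.02 in SCI, and it was not called in SHAM (edgeR adjusted p = 0.208).

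Among the arms that were lower, none was called, and the 10 of smallest p are named for that reason. Their log2 fold changes ran from -0.98 to -0.46, with edgeR adjusted p = 0.16 to 0.208. In all 10 the 3 days libraries lay below every 12 h library, beside 83 of all 803 arms (10.3%). As the 10 were picked for small p in these same libraries, this follows largely from the choice and is no further evidence. miR-350-3p, from an intron of Cep170, had 2891, 3718 and 3238 normalised counts at 12 h and 2122, 2081 and 1743 at 3 days. miR-23a-3p, a widely expressed miRNA, had 19164, 29736 and 25747 at 12 h and 16969, 15026 and 15189 at 3 days. miR-30b-5p was the most abundant of the 10, with 105158 to 123773 at 12 h and 65971 to 87099 at 3 days.

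Of the 10 arms, 5 belonged to the Dlk1-Dio3 cluster of neuronal miRNAs, which held 12.1% of all arms tested: miR-329-3p, miR-337-3p, miR-376b-3p, miR-409-5p and miR-495-3p. miR-329-3p had 1747, 3039 and 2415 normalised counts at 12 h and 1257, 1294 and 1321 at 3 days. Over the cluster, 97 arms were tested, of which 11 (11.3%) were lower and 7 (7.22%) higher at an unadjusted p under 0.05, beside 6.85% and 7.22% of all arms, and the median log2 fold change was -0.11 beside -0.025. The shares of the cluster lay near those of all arms. The remaining arms were miR-467d-3p and let-7i-3p with those above.

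The partner arms of the same hairpins had log2 fold changes from -0.36 to 0.34. The 10 arms were picked for their small p and their partners were not, so these values are a description and no difference between arm and partner is drawn from them. All 10 arms were also lower at 3 days in the SCI libraries, with log2 fold changes from -1.01 to -0.36. The unadjusted p of the difference between SHAM and SCI ran from 0.022 to 0.989.

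**Figure D4:**
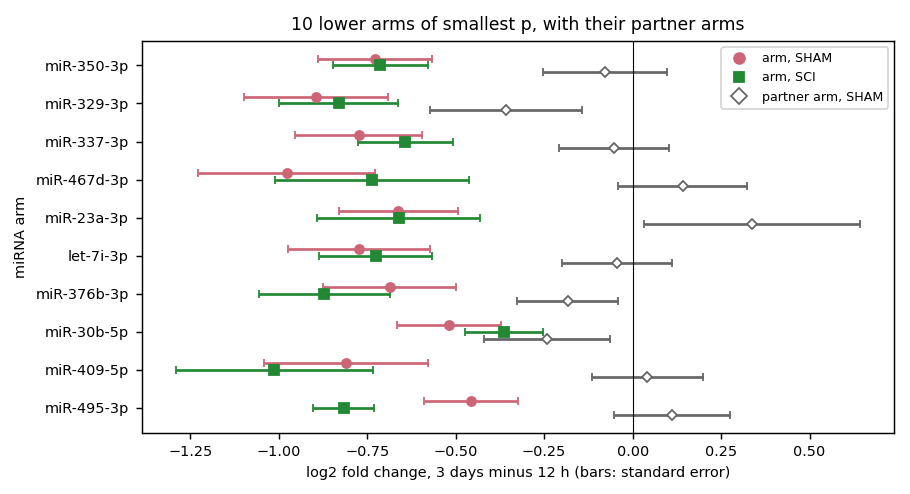
Log2 fold change between 3 days and 12 h, with standard errors, of the 10 lower arms of smallest p in SHAM (circles), of the same arms in SCI (squares) and of their partner arms in SHAM (open diamonds). The arms lie between -0.98 and -0.46 in SHAM and between -1.01 and -0.36 in SCI, and the partners between -0.36 and 0.34.

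Across the 726 arms tested at both, the time effects of SHAM and SCI had a Pearson r of 0.27 and a Spearman rho of 0.39. This is a description across arms, which are not independent replicates, and the labels do not say whether SHAM and SCI libraries of a time point share a preparation. Of the 52 arms lower in SHAM at an unadjusted p under 0.05 and tested in both, 46 were lower in SCI; of the 56 higher ones, 35 were higher in SCI. Over all arms, 262 of 400 lower ones and 213 of 326 higher ones had the same sign.

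The muscle list had 3 of 7 tested arms lower at an unadjusted p under 0.05, beside 6.85% of all arms, and its sum was 13851 to 15027 normalised counts at 12 h and 9132 to 13433 at 3 days, without overlap (two-sided exact permutation p = 0.1). Its main member, miR-1a-3p, had 12611, 11362 and 12324 at 12 h and 8118, 11313 and 7245 at 3 days. The red blood cell arm miR-451a had 4199, 5611 and 5669 at 12 h and 4213, 3834 and 2997 at 3 days. These groups overlapped. miR-182-5p, a sensory organ and pineal marker, varied within groups, with 669.2, 347.1 and 2682 at 12 h and 1688, 319.7 and 1622 at 3 days.

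Lists of inflammation and of the brain's own cells had medians within 0.14 of zero. The inflammation list had 0 of 11 tested arms at an unadjusted p under 0.05 and a median log2 fold change of 0.10, and none was called. The endothelial arm miR-126a-3p had a log2 fold change of 0.10, and the oligodendrocyte arm miR-338-3p 0.03. Of 20 tested arms in the neuronal list, 3 (15%) were lower and 0 higher at an unadjusted p under 0.05, beside 6.85% and 7.22% of all arms, with a median of -0.08. The activity-regulated miR-132-3p had a log2 fold change of -0.03. The white blood cell and microglia list had 1 of 7 higher at that p, beside 7.22% of all arms, and a median of -0.14. The list of miRNAs named by the study took both arms and all gene copies of each. It thus held arms that the study does not name, such as miR-1298-3p and miR-7b-5p. Of its 15 tested arms, 5 were higher (33.3%, beside 7.22% of all arms) and 0 lower at an unadjusted p under 0.05, with a median of -0.07. The study chose these arms on these samples, so the count is not independent evidence, and 3 of the 5 (miR-1298-5p, miR-1298-3p and miR-551b-5p) belong to the set carried by 3 days libraries 1 and 3. The epithelial list had 0 of 10 tested arms at that p, the vessel wall and meninges list 0 of 8, and the Hox cluster list 0 of 2. The endocrine arm miR-375-3p had 493.1, 383.9 and 493.5 normalised counts at 12 h and 676.0, 456.7 and 956.0 at 3 days, and these groups overlapped.

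The rest of the small RNA also differed in composition. snoRNA and scaRNA, which guide the modification of ribosomal and spliceosomal RNA, made up 0.545% to 0.658% of reads at 12 h and 0.837% to 0.997% at 3 days. snRNA, the RNA of the spliceosome, made up 0.349% to 0.426% and 0.197% to 0.286%. In SCI the snoRNA and scaRNA share was 0.593% to 0.681% at 12 h and 0.571% to 0.635% at 3 days, which overlapped each other and the SHAM 12 h libraries. Neither pair of SHAM groups overlapped (two-sided exact permutation p = 0.1 each). Of the 15 measures of composition compared, 10 did not overlap, and no adjusted value passes since an exact permutation test of these group sizes gives p = 0.1 at the lowest. Reads of 28 to 34 nt made up 1.22% to 2.23% at 12 h and 3.12% to 7.49% at 3 days, while in SCI they were 5.3% to 8.29% at 12 h and 2.9% to 4.73% at 3 days.

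Single RNAs are given as values, chosen after they were seen. Snord95 had 10.7, 8.08 and 15.5 RPM (reads scaled to a fixed library total) at 12 h and 167.0, 102.1 and 46.5 at 3 days, while in SCI it had 67.2, 111.7 and 52.4 at 12 h and 20.9, 58.5 and 22.3 at 3 days. Of 16 snoRNA or scaRNA genes of at least 50 RPM, 11 were above in every 3 days SHAM library and 2 below. In SCI the log2 ratios of these 11 ran from -1.185 (Snord95) to 0.286 (Snord85). Of 21 mitochondrial tRNA genes at that level, 0 were above in SHAM and 4 below. Of 2 Y RNA genes 1 was above and 0 below, and the 2 mitochondrial rRNA genes and 1 rRNA gene overlapped. Rnu5g, a U5 spliceosomal RNA, had 1460, 1229 and 910.4 at 12 h and 600.4, 457.2 and 248.1 at 3 days, and 841.6, 365.9 and 512.5 then 110.4, 135.4 and 77.5 in SCI. Rnu5g was lower in every 3 days library than in any 12 h library in both SHAM and SCI. Of 5 snRNA genes of at least 50 RPM, 3 were below in every 3 days SHAM library and 0 above. Under their own normalisation, 6.97% of miRNA arms lay all above and 10.3% all below. No share over all the RNA genes of at least 50 RPM was counted, so these counts describe the classes and nothing further is drawn from them. Rnu12 had 33.8, 45.0 and 69.6 at 12 h and 106.35, 66.1 and 106.6 at 3 days in SHAM, and these groups overlapped. Snord95 had the largest SHAM ratio of the snoRNA genes (log2 3.203, beside a class median of 1.008), so its size does not stand for the class. Snord80, 1 of the 2 below, had 118.0, 98.2 and 64.2 RPM at 12 h and 63.0, 52.15 and 63.7 at 3 days in SHAM. At 12 h in SCI, Snord80 had 42.1, 34.4 and 46.3.

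**Figure D5:**
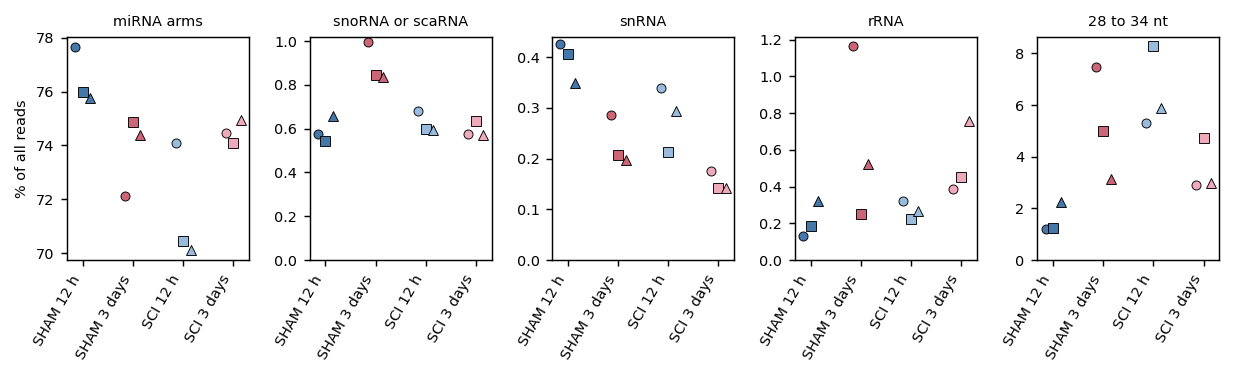
Share of all reads (%) in miRNA arms, snoRNA or scaRNA, snRNA, rRNA and reads of 28 to 34 nt for the 12 P90 libraries, 1 point per library with circles, squares and triangles for libraries 1, 2 and 3; the axis of the first panel does not start at 0. snRNA is lower at 3 days in SHAM and SCI, and the share of reads of 28 to 34 nt is higher at 3 days in SHAM but lower in SCI.

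miRNA reads were slightly longer at 3 days. Among 279 arms with at least 500 reads in each SHAM library, the mean read length was above in every 3 days library for 93 (33.3%) and below for 12. The median difference was 0.022 nt. The mean over all arm reads was 21.69 to 21.70 nt at 12 h and 21.72 to 21.75 nt at 3 days, and 0.034 nt of the difference lay within arms and 0.0095 nt in their shares. miR-29c-5p differed most, with 21.55, 21.66 and 21.72 nt at 12 h and 21.78, 21.81 and 22.03 nt at 3 days.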

How the data were processed

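Small RNA libraries had been made with HD adapters, whose degenerate ligating ends reduce ligation bias. Per the study's methods, the authors removed reads with unassigned nucleotides, trimmed the adapter and the degenerate nucleotides, and deposited unnormalised counts of each distinct read of 17 to 34 nt. The genome and miRBase mapping and the authors' own test came later and were not used here; GRCm38 is the build in the submitters' processing notes.

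The arms of 1174 hairpins (GENCODE M21) received reads of 18 nt or longer by whole-read exact sense match and summed. Reads in more than 1 arm were left out, and arms with a common main read or RefSeq name were merged. The 6 SHAM libraries were normalised together (TMM) and tested with edgeR 4.0.16 (R 4.3.3) over arms with a mean normalised count of at least 5. SCI values and the difference between time effects came from edgeR fits of the 6 SCI and of all 12 P90 libraries. Standard errors are of log2 fold changes. DESeq2 1.42.0 was an alternative. The test was checked on simulated counts. Python 3.11.15 and scipy 1.17.1 gave exact permutation tests.

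Named arms were those called (up to 15 per direction), filled by smallest p to 10, the 2 most abundant per marker list (18 lists), the 5 most abundant, and those called for the difference. The arms of the set high in 3 days libraries 1 and 3, the partner arms, and the single RNAs were named after their values were seen. The members and lists were chosen with earlier results of these data known. At the depth of the 6 libraries, 3 reads correspond to 0.0803 to 0.268 RPM. Replicates of each group differed by more than sampling noise (chi-square per degree of freedom 134.8 to 738.2), so none was counted as a copy. The p values measure the spread between these libraries. The P15 libraries were not analysed here.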

Additional observations from a re-analysis of the deposited data

Results flagged for a closer look

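miR-671-5p was picked out because its change over time differed between SHAM and SCI cortex, by 1.24 on the log2 scale (edgeR adjusted p = 0.00746). It was higher at 3 days in 3 of 3 SHAM libraries and lower in 3 of 3 SCI libraries than in any 12 h library of the same condition. Groups of 3 libraries were too small for a test of single outlying samples. The study had already named miR-671-5p as downregulated after SCI, from libraries of the same series.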

How the results depend on the processing

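The count of arms called between 12 h and 3 days (1) was 7 with DESeq2, 2 with library totals as scaling and 20 without a filter on low counts. It was 2 with the most abundant sequence of each arm, 4 with all 12 P90 libraries in one fit and 2 after downsampling. With the log2 limit of 1 kept, 23 arms passed an unadjusted p under 0.05 in place of the adjusted one. Leaving out each library gave 0 to 21 called arms, with 0 without 3 days library 3 (56 at an unadjusted p under 0.05) and 21 without 3 days library 2. At any fold, DESeq2 placed 22 arms under an adjusted p of 0.05, 13 higher and 9 lower, among them 8 of the 10 lower arms of smallest p. Same-numbered libraries did not deviate together (correlations -0.161, 0.09 and 0.202), so the numbers were not taken as pairs; the replicate block gave 9 called arms and left miR-3470a-3p called. The count for the difference between SHAM and SCI (1) was 22 without a filter and 1 to 4 with each library left out, the 4 without SHAM 3 days library 2; with the block it was 1. miR-671-5p was called in all 17 alternatives of that difference, at 1.19 to 1.36 on the log2 scale and adjusted p from 4.5e-09 to 0.0489. Of the log2 fold changes of the 55 named arms, the sign turned in 41 of 989 alternative values, none of them of a called arm. With library totals the log2 fold change was 0.026 for miR-342-3p, 0.016 for miR-143-3p, 0.038 for miR-182-5p and 0.038 for miR-132-3p, and with the most abundant sequence 0.135, 0.009 and 0.286 for the first 3. It was 0.005 for miR-342-3p and 0.002 for miR-132-3p after downsampling, 0.482 for miR-200a-3p and 0.16 for miR-182-5p with the block, and -0.082 for miR-183-5p with DESeq2. With each library left out, the values ran from -0.303 to 0.114 for miR-203-3p, -0.659 to 1.411 for miR-200a-3p, -0.22 to 0.122 for miR-342-3p, -0.041 to 0.152 for miR-222-3p, -0.2 to 0.037 for miR-221-3p, -0.22 to 0.053 for miR-143-3p, -0.233 to 0.052 for miR-145a-5p, -0.458 to 1.276 for miR-182-5p, -0.457 to 1.597 for miR-183-5p, -0.162 to 0.168 for miR-338-3p, -0.079 to 0.074 for miR-132-3p and -0.03 to 0.082 for miR-26a-5p. The causes of these differences were not tested.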
